A study of Mus musculus with 6 samples.

Results

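The clustered protocadherins are cadherin-like adhesion proteins of the neuronal surface, encoded in 3 neighbouring gene arrays named alpha, beta and gamma. Every row of the deposited table whose symbol is a numbered alpha, beta or gamma protocadherin was taken as a member, which gave 58 of the 45777 genes in the table. There were 14 members in the alpha cluster, 22 in the beta cluster and 22 in the gamma cluster. The members were chosen by symbol and not by value, but the family was picked for description with results of the stress comparison already known. Differences between the groups are therefore given as a description, and none is offered as independent support.

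Bulk RNA had been sequenced from the anterior cingulate cortex, which lies along the front of the brain's midline, in the inbred mouse strain BALB/c. A set of 3 libraries (smSDS) was from mice that had 5 days of social defeat stress, an exposure to attack by a dominant mouse, and the other 3 libraries were from non-stress mice (NS) of that strain. No transgene, drug or age is given for either group. Whether each library is a separate animal is not stated, so any p-value reflects the spread among these libraries alone, which may be technical. The stress libraries held 41623899 to 44882821 counts and the non-stress libraries 41976809 to 47212982.

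In a neuron, each array acts as a menu of promoters. A subset of the alpha, beta and gamma promoters is chosen in each cell, largely at random, under control of the insulator protein CTCF, cohesin and DNA methylation. The resulting proteins pair on the cell surface and bind like partners on other membranes, which lets the branches of a neuron recognise and avoid one another. Each alpha or gamma transcript joins 1 variable exon of its own to constant exons common to its cluster, whereas a beta gene is usually a single exon with no constant part. The C-type members at the end of the alpha and gamma arrays are used by most neurons rather than chosen at random.

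The arrays lie in tandem on chromosome 18 (GRCm38.p6). The alpha cluster runs from 36930285 to 37188897, the beta cluster from 37264998 to 37521419 and the gamma cluster from 37661775 to 37841873. This layout bears on every value below, because exon bases annotated to more than 1 member made up 38.0% to 54.9% of the exons of an alpha gene and 27.8% to 66.8% of those of a gamma gene. In the beta cluster the share was 0% to 9.7%. In the alpha cluster 41.6% to 56.7% of the 100-base words of a gene's transcripts also occurred in another member, in the gamma cluster 25.9% to 62.7%, and in the beta cluster 0% to 7.7%. How the counting step divided reads from shared exons among alpha or gamma members is not given in the sources used here, so the counts of single members of these clusters are uncertain. Antisense exons overlap 63.5% of the exon bases of Pcdhb12, 55.2% of those of Pcdhga10 and 44.3% of those of Pcdha11, and the use of strand is not stated, so reads of both strands cannot be told apart there.

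Together the 58 members held 585.5 ± 7.15 CPM (counts scaled to a common effective library size) in stress and 577.6 ± 12.7 CPM in non-stress (SD, n = 3 each). The gamma cluster carried 54.3% of the family's counts on average, the alpha cluster 26.8% and the beta cluster 18.8%. 57 members passed the filter on low counts. The member left out was Pcdhb1, a beta protocadherin gene, with 0, 2 and 0 counts in stress libraries 1, 2 and 3 and 0, 0 and 2 in non-stress libraries 1, 2 and 3. The ranking of the 57 members was alike in every library: Spearman's rho between any pair of libraries lay between 0.94 and 0.97, a description over genes that share each library.

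**Figure D1:**
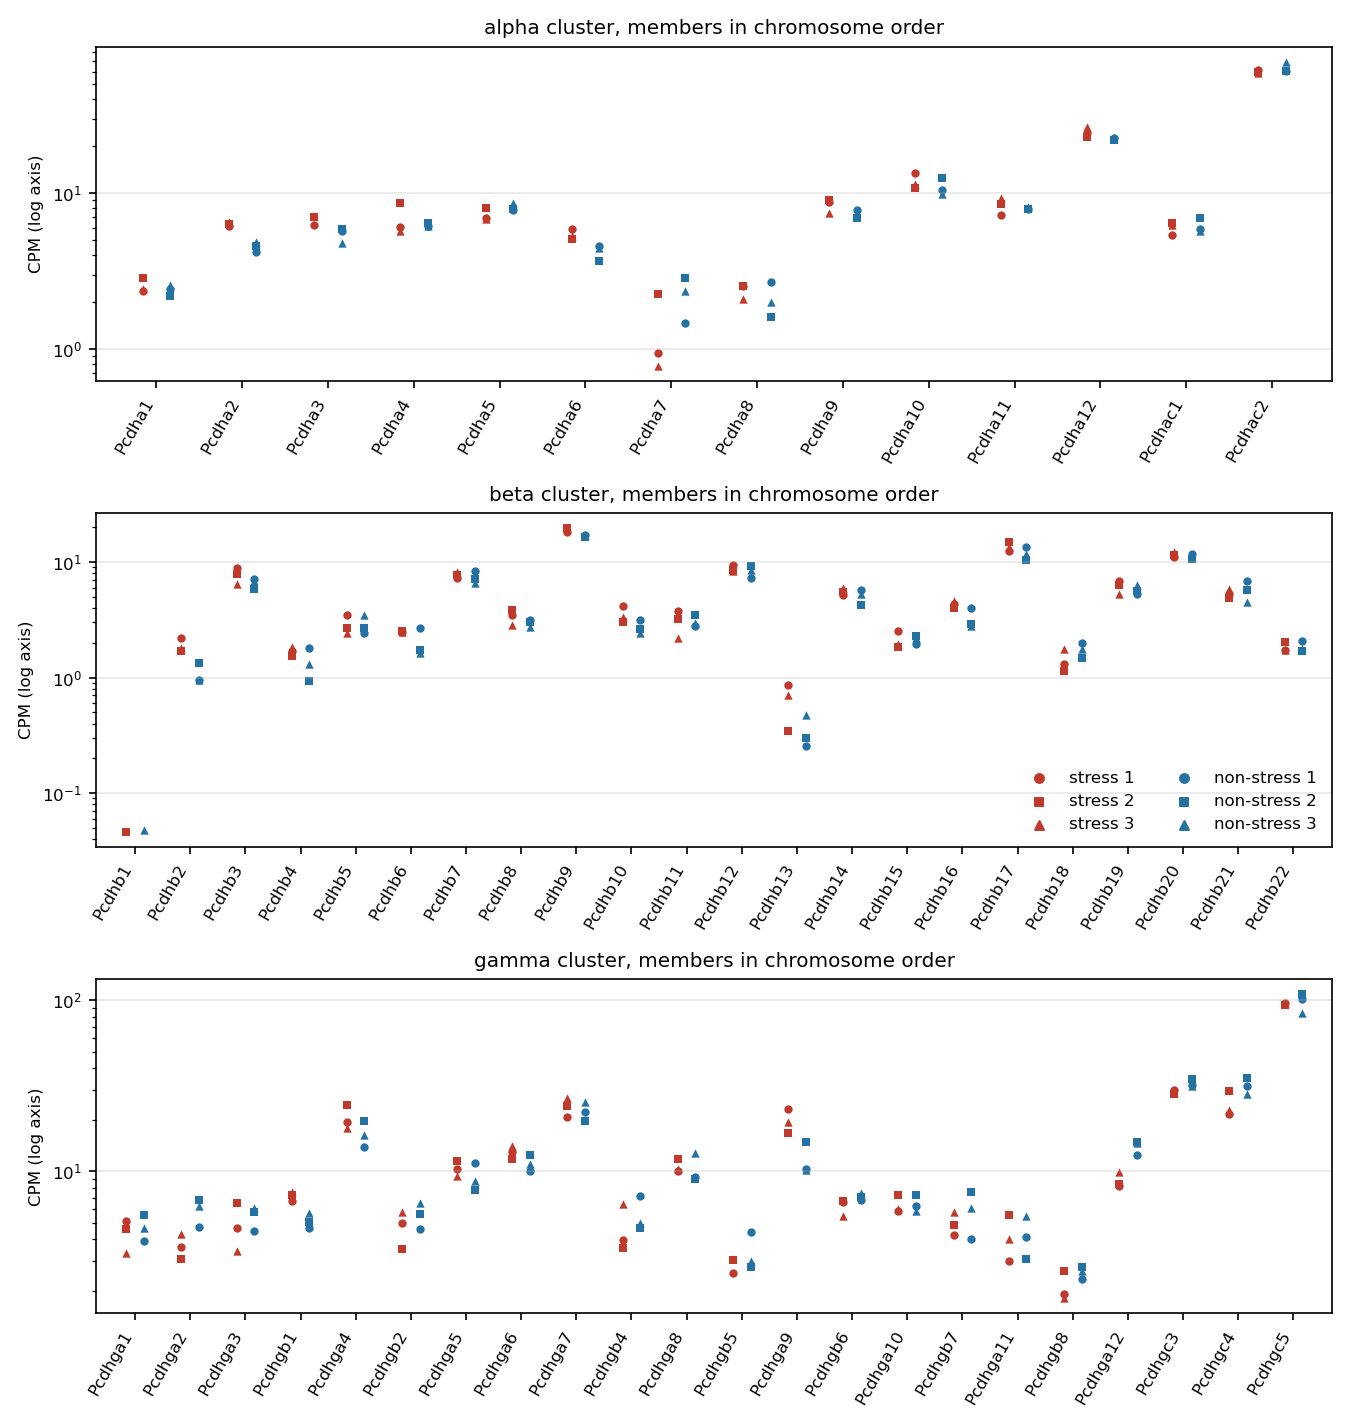
Level of each of the 58 members in each library, in CPM on a log axis, with the alpha, beta and gamma clusters in separate panels and genes in chromosome order. Red symbols are stress libraries and blue symbols non-stress libraries, and values of 0 are not drawn. The C-type genes Pcdhac2 and Pcdhgc5 stand at the top of their clusters, and Pcdhb1 at the bottom.

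Levels between genes were compared as CPM per kilobase of annotated exon, over all 6 libraries. In the alpha cluster Pcdhac2, the C-type gene needed by serotonergic axons to space themselves apart, led at 10.5 ± 0.608 (SD, n = 6). Pcdha12 followed at 4.39 ± 0.306 and Pcdha10 at 2.12 ± 0.249, and the ranges over libraries of these 3 and of the gene after them did not touch. From Pcdha9 (1.49) down to Pcdha6 (0.902) each gene overlapped the next in the order, and Pcdha1, Pcdha8 and Pcdha7 formed the lowest run at 0.463, 0.422 and 0.334. Of 13 neighbours in this order, 9 overlapped. Pcdhac2, Pcdha12 and Pcdha10 together took 61.9% of the alpha counts.

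In the beta cluster Pcdhb9 led at 5.89 ± 0.399 CPM per kilobase and stood clear of all other members. Pcdhb20 (3.19), Pcdhb12 (2.83), Pcdhb17 (2.73), Pcdhb7 (2.16) and Pcdhb3 (1.90) came next and overlapped one another in turn. The lowest levels were those of Pcdhb13 (0.133) and Pcdhb1 (0.0060). By counts, Pcdhb9, Pcdhb17 and Pcdhb20 took 38.4% of the beta cluster, a flatter distribution than in alpha or gamma.

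In the gamma cluster Pcdhgc5, a C-type protein known to bind GABA-A receptors, led at 12.7 ± 1.04 CPM per kilobase. Pcdhgc3 (5.60 ± 0.439), a C-type member that promotes dendrite branching, and Pcdhgc4 (5.02 ± 0.932), the C-type member needed for the survival of cortical interneurons, followed and overlapped each other. Of 21 neighbours in the gamma order, 19 overlapped. The 3 C-type genes took 49.2% of the gamma counts. The order depends on how shared exons are treated: per kilobase of exon annotated to no other member, Pcdhga4 moved from place 5 to place 2, at 11.8, behind Pcdhgc5 at 17.6. The lowest gamma levels per kilobase of exon were those of Pcdhgb5 (0.466) and of Pcdhgb8 (0.507), which NCBI annotates as a transcribed pseudogene in the reference strain.

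The comparison of stress with non-stress asks whether repeated defeat alters the family's expression in this region. Of the 57 members tested, 0 were called by the quasi-likelihood test of edgeR (Benjamini-Hochberg adjusted p under 0.05 over 19227 genes), beside 0.0052% of all genes, which is 1 gene. An unadjusted p under 0.05 was found for 12 members, beside 12.1% of all genes. Of these 8 were higher in stress, beside 5.8%, and 4 lower, beside 6.27%. The groups did not overlap in 12 members, beside 17.9% of all genes. Here too 8 were higher, beside 8.7%, and 4 lower, beside 9.2%. Since the members were picked with this contrast known, nothing is read from these shares. In bulk tissue, fewer cells that use a promoter and less RNA per cell cannot be told apart.

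The cluster medians lay above 0 in alpha and beta and below 0 in gamma, though not in every class of a cluster. The median log2 fold change (stress over non-stress) was 0.13 over the 14 alpha genes and 0.11 over the 21 beta genes tested, and -0.15 over the 22 gamma genes, beside -0.00053 over all genes tested. In the alpha cluster 10 members lay above 0 and 4 below, and in the beta cluster 16 and 5. In the gamma cluster 7 lay above and 15 below, beside 50.2% of all genes below 0. Within gamma, the 12 gamma A genes had a median of 0.018, with 6 above 0 and 6 below. The 7 gamma B genes had a median of -0.23 and the 3 gamma C-type genes one of -0.18. In alpha, the 2 C-type genes had a median of -0.056, against 0.13 over the 12 alpha 1 to 12 genes. The difference between clusters was not tested. The gamma median was -0.04 without non-stress 1 and -0.018 without stress 3, and the beta median 0.18 without non-stress 1 and 0.19 without stress 3.

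Summed over classes, the alpha 1 to 12 genes had 90.8, 94.1 and 91.6 CPM in stress libraries 1, 2 and 3, against 83.8, 84.3 and 84.0 CPM in non-stress libraries 1, 2 and 3. The groups did not overlap, and the stress mean was 0.13 higher on the log2 scale. The beta genes summed to 116.7, 115 and 113 CPM in stress, against 110.0, 100.0 and 103 CPM in non-stress, again without overlap and with non-stress 1 nearest to stress. The log2 ratio of the beta means was 0.14, or 0.18 without non-stress 1.

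The sum of the C-type genes leaned the other way. All 5 summed to 215, 217.5 and 213 CPM in stress and 231, 246 and 218.7 CPM in non-stress. These sums did not overlap, by a narrow margin. The 5 genes made up 36.8% ± 0.238 of the family in stress and 40.1% ± 1.57 in non-stress (SD, n = 3 each). The alpha C-type pair had 66.5, 66.4 and 65.4 CPM in stress and 66.7, 67.7 and 74.6 CPM in non-stress, which did not overlap but touched closely at the low end of non-stress. The gamma C-type genes had 148, 151 and 148 CPM in stress and 164, 178 and 144 CPM in non-stress, where non-stress 3 lay below every stress library. The gamma A genes summed to 126.9, 135.7 and 129.2 CPM in stress and 112.6, 126.6 and 127.2 CPM in non-stress, with non-stress 3 inside the stress range. The gamma B genes had 30.9, 31.6 and 35.9 CPM in stress and 34.0, 35.4 and 36.3 CPM in non-stress, which overlapped.

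**Figure D2:**
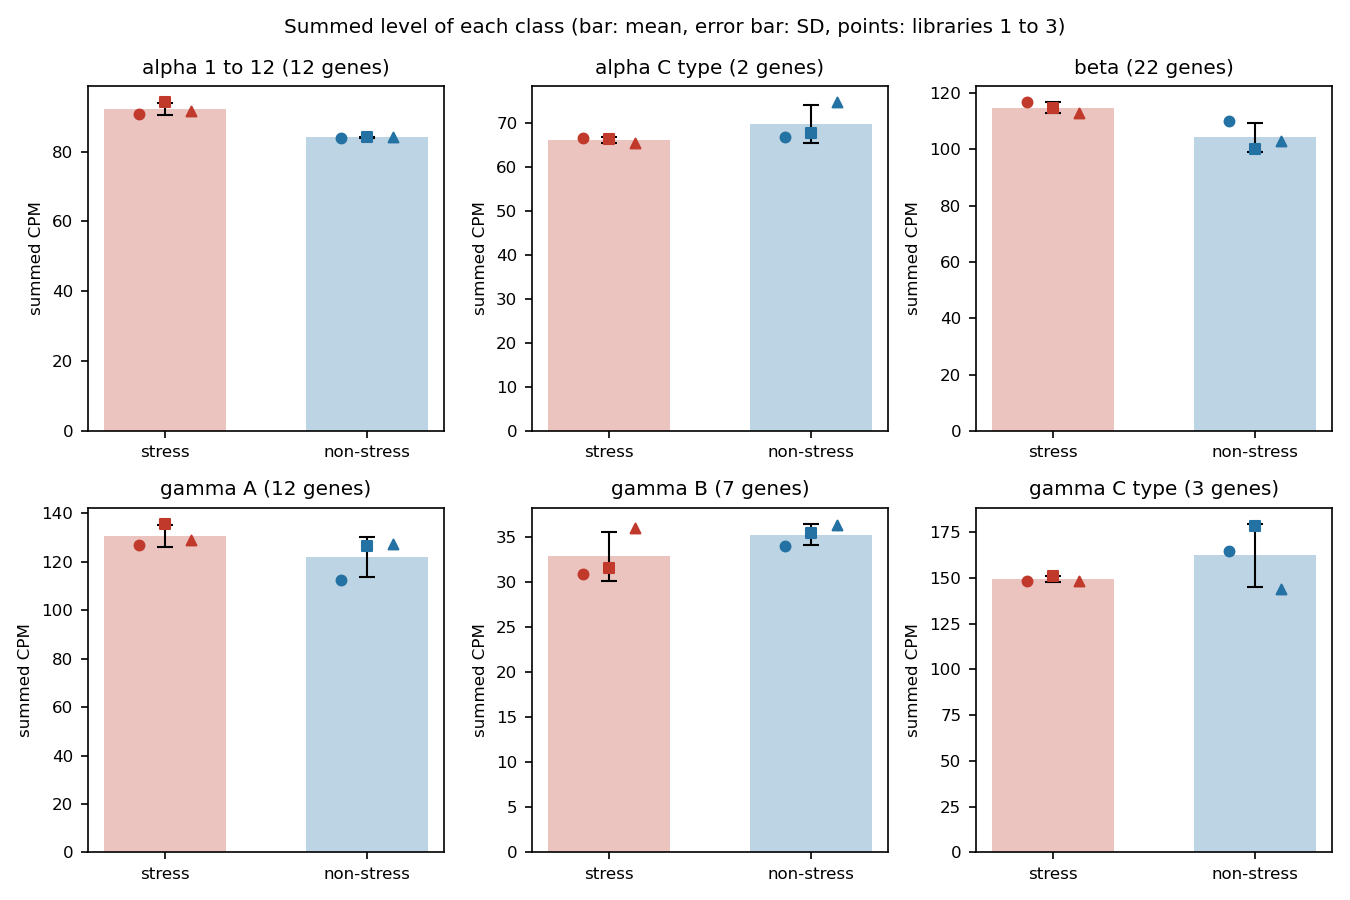
Summed CPM of each of the 6 classes, with bars for the mean of 3 libraries, error bars for the SD and symbols for libraries 1, 2 and 3 of each group. Stress stands left of non-stress in each panel, and the axes start at 0. The alpha 1 to 12 and beta sums were higher in all 3 stress libraries than in any non-stress library.

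Among the alpha genes, the 3 with the smallest p-values were Pcdha2, Pcdha3 and Pcdha6, which lie near the start of the array and encode alternative, promoter-chosen isoforms. Pcdha2 had 6.15, 6.38 and 6.53 CPM in stress, against 4.17, 4.55 and 4.87 CPM in non-stress. All stress libraries lay above all non-stress libraries, with a log2 fold change of 0.49 (SE 0.11, edgeR adjusted p = 0.344). Pcdha6 had 5.91, 5.07 and 5.28 CPM in stress and 4.61, 3.70 and 4.47 CPM in non-stress. Pcdha3 had 6.22, 7.07 and 7.18 CPM in stress and 5.70, 5.89 and 4.78 CPM in non-stress. Neither overlapped between groups, and their log2 fold changes were 0.35 and 0.32 (edgeR adjusted p = 0.373 and 0.370).

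The most abundant alternative alpha gene, Pcdha12, had 24.2, 22.9 and 26.4 CPM in stress and 22.5, 21.9 and 22.7 CPM in non-stress. Its groups were separate by less than the spread within stress, and its log2 fold change was 0.13 (SE 0.07). Pcdha10 had 13.4, 10.7 and 11.4 CPM in stress and 10.4, 12.4 and 9.82 CPM in non-stress, and Pcdha11 had 7.26, 8.52 and 9.36 CPM in stress and 7.945, 7.935 and 8.11 CPM in non-stress. Both overlapped, with log2 fold changes of 0.12 and 0.07. The other 6 alternative alpha genes all overlapped between groups, with log2 fold changes from -0.76 (Pcdha7) to 0.18 (Pcdha9 and Pcdha8). Of the 14 alpha genes, 4 were higher in every stress library than in any non-stress library, beside 8.7% of all genes, and 0 were lower in that way, beside 9.2%.

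The alpha C-type genes differed little. Pcdhac2 had 61.1, 59.96 and 59.1 CPM in stress and 60.8, 60.7 and 68.9 CPM in non-stress, a log2 fold change of -0.08 (SE 0.06), or -0.018 without non-stress 3. Pcdhac1 had 5.43, 6.43 and 6.29 CPM in stress and 5.91, 6.96 and 5.68 CPM in non-stress, a log2 fold change of -0.03 (SE 0.12). For neither gene was the difference larger than 2 SE.

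The widest swing in the alpha cluster was that of Pcdha7, which was singled out after its values were seen. It had 0.941, 2.25 and 0.780 CPM in stress and 1.48, 2.85 and 2.38 CPM in non-stress, a 3.65-fold range over the 6 libraries and a log2 fold change of -0.76 (SE 0.38, edgeR adjusted p = 0.460). The log2 fold change was -1.38 without stress 2 and -0.48 without stress 3. Library 2 was the highest of each group. NCBI annotates a read-through gene, Gm38667 (synonym Pcdha7-g), that starts at 36973802, close to the start of Pcdha7 at 36973811, and ends with the gamma cluster at 37841873. Gm38667 had 4.37, 2.50 and 5.51 CPM in stress and 3.08, 1.74 and 3.28 CPM in non-stress. It was lowest in library 2 of each group, where Pcdha7 was highest. Both genes were higher in non-stress 3 than in non-stress 1. The log2 fold change of Gm38667 alone was 0.62 (SE 0.30, edgeR adjusted p = 0.450).

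Added together, Pcdha7 and Gm38667 had 5.31, 4.75 and 6.29 CPM in stress and 4.56, 4.59 and 5.66 CPM in non-stress. The range over libraries shrank to 1.38-fold, and the log2 fold change of the summed row was 0.14 (SE 0.14, edgeR adjusted p = 0.711). The sign for Pcdha7 alone was not kept once both genes were counted as 1. This sum was chosen after the values were seen.

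**Figure D3:**
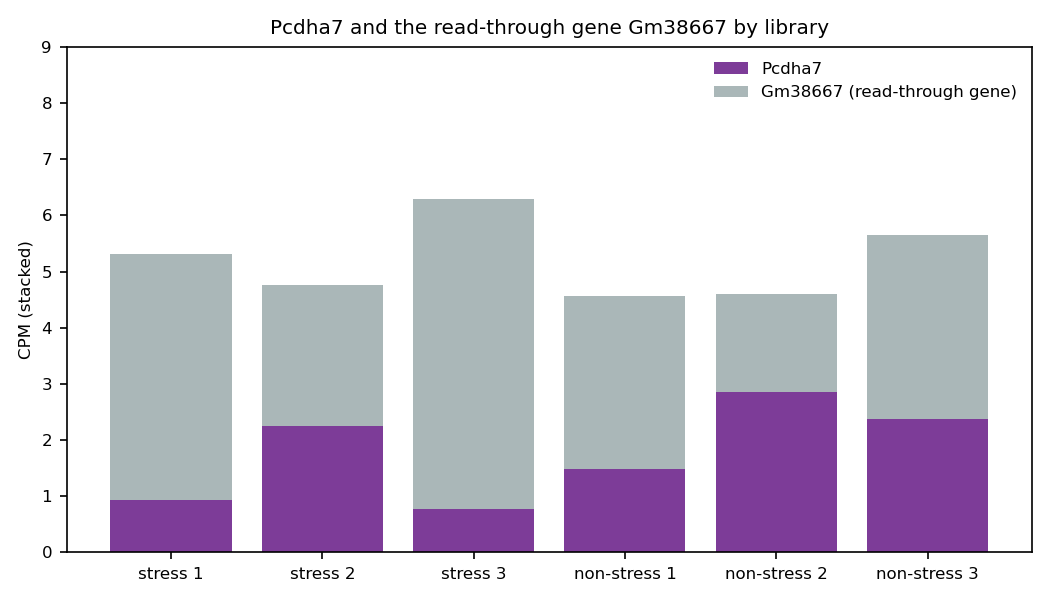
Stacked CPM of Pcdha7 (purple) and of the read-through gene Gm38667 (grey) in the 3 stress libraries, left, and the 3 non-stress libraries, right. The purple part ranges from 0.780 to 2.85 CPM while the height of the whole bar ranges from 4.56 to 6.29 CPM.

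The beta genes share the least exon with other members, and 16 of the 21 tested lay above 0 in stress, without any passing the test. Pcdhb2 had 2.20, 1.70 and 1.81 CPM in stress, against 0.9497, 1.34 and 0.951 CPM in non-stress, from 74 to 91 counts in a stress library and 40 to 63 counts in a non-stress library. Its stress libraries all lay above its non-stress libraries, with a log2 fold change of 0.81 (SE 0.21, edgeR adjusted p = 0.344). Pcdhb9, the most abundant beta gene, had 18.3, 19.6 and 19.2 CPM in stress and 17.2, 16.6 and 17.1 CPM in non-stress. It too was separate between groups, with a small log2 fold change of 0.17 (SE 0.07, edgeR adjusted p = 0.386).

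Pcdhb16 had 4.34, 4.02 and 4.64 CPM in stress and 4.03, 2.94 and 2.81 CPM in non-stress, so non-stress 1 fell within the stress range. Its log2 fold change was 0.41 (SE 0.16, edgeR adjusted p = 0.386), and without non-stress 1 it was 0.59 with an adjusted p of 0.0479. Pcdhb17 had 12.4, 14.9 and 13.6 CPM in stress and 13.4, 10.4 and 11.7 CPM in non-stress, and Pcdhb20 had 11.0, 11.6 and 12.1 CPM in stress and 11.6, 10.7 and 11.1 CPM in non-stress. Both overlapped, with log2 fold changes of 0.20 and 0.05. Of the 21 beta genes tested, 2 were higher in every stress library, a share near the 8.7% of all genes, and 0 were lower, beside 9.2%. The other 16 all overlapped. Their log2 fold changes ran from -0.30 (SE 0.22) for Pcdhb18 to 0.90 (SE 0.41) for Pcdhb13, a gene with 36, 15 and 32 counts in stress and 11, 14 and 20 counts in non-stress.

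**Figure D4:**
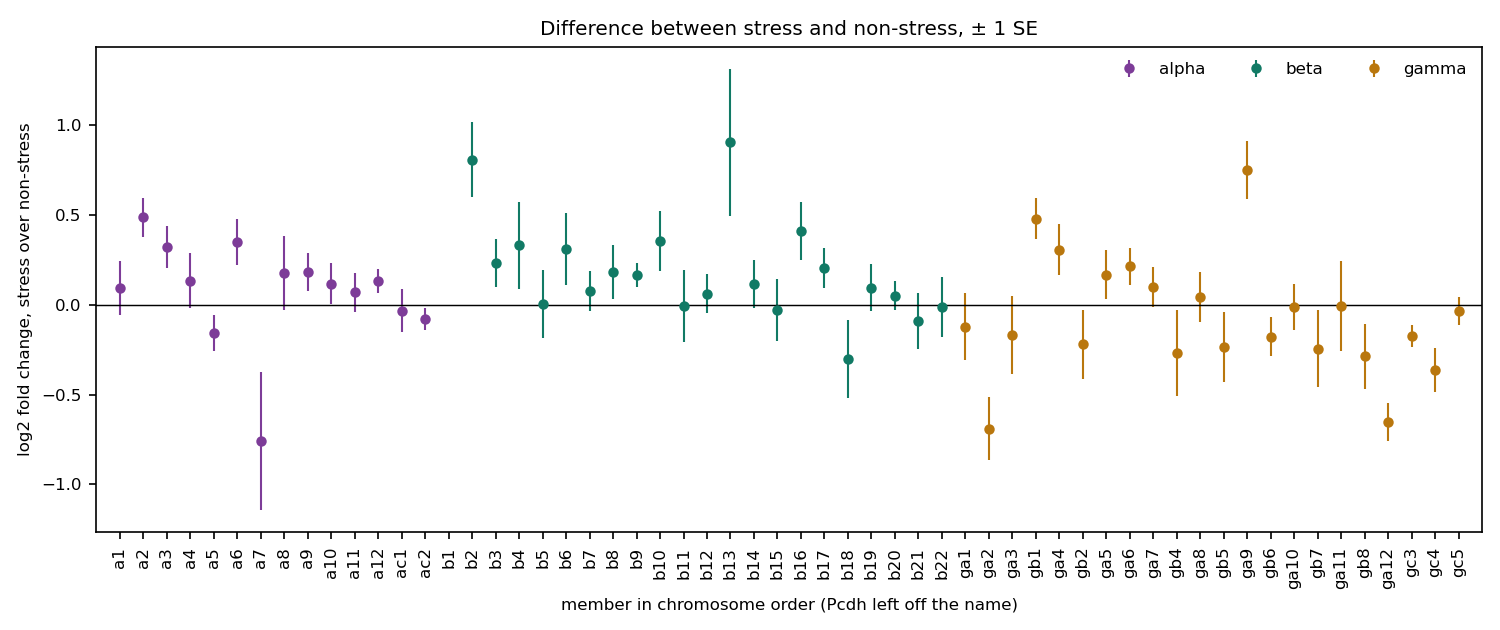
Log2 fold change of stress over non-stress for the 57 members tested, in chromosome order, with bars of 1 SE and colours for the clusters. Most alpha and beta values lie above 0, and 15 of the 22 gamma values lie below it, with a range from -0.69 at Pcdhga2 to 0.75 at Pcdhga9.

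The smallest p-value of the family belonged to a gamma gene. Pcdhga12, the last of the alternative gamma A genes (37765580 to 37841873), had 8.18, 8.43 and 9.92 CPM in stress, against 12.4, 14.7 and 14.5 CPM in non-stress. The groups were well apart, and the mean was 8.84 ± 0.942 CPM in stress and 13.9 ± 1.29 CPM in non-stress (SD, n = 3 each). The log2 fold change was -0.65 (SE 0.11), with edgeR's adjusted p at 0.166 over all genes, the smallest of the family. Over 13 alternatives the adjusted p lay between 0.000125 (DESeq2) and 0.732, and it was 0.0028 without non-stress 1.

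The neighbours of Pcdhga12 had smaller differences in the same direction. From Pcdhga12, Pcdhgc3 lay 3.89 times the combined SE away and Pcdhgb8 1.74 times, so the contrast in size with Pcdhgb8 is uncertain. Upstream, Pcdhgb8 had 1.91, 2.62 and 1.81 CPM in stress and 2.34, 2.765 and 2.62 CPM in non-stress, which overlapped (log2 fold change -0.29, SE 0.18). Downstream, Pcdhgc3 had 30.0, 28.1 and 28.6 CPM in stress and 31.8, 34.7 and 31.5 CPM in non-stress, which did not overlap (log2 fold change -0.18, SE 0.06, edgeR adjusted p = 0.355).

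At the other end of the array, Pcdhga2 had 3.62, 3.05 and 4.30 CPM in stress and 4.70, 6.74 and 6.25 CPM in non-stress. All stress libraries were below all non-stress libraries (log2 fold change -0.69, SE 0.17, edgeR adjusted p = 0.344), and the adjusted p was 0.0142 without non-stress 1. Its flanking genes overlapped between groups: Pcdhga1 had a log2 fold change of -0.12 (SE 0.19) and Pcdhga3 one of -0.17 (SE 0.22).

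Pcdhga9 showed the opposite pattern. It had 23.2, 16.8 and 19.5 CPM in stress, against 10.3, 14.9 and 10.2 CPM in non-stress, so every stress library exceeded every non-stress library. Its log2 fold change was 0.75 (SE 0.16, edgeR adjusted p = 0.344). The genes on either side lay below 0, Pcdhgb5 at -0.23 (SE 0.19) and Pcdhgb6 at -0.18 (SE 0.11). Pcdhgb5 was at 0.0017 without non-stress 1, and Pcdhgb6 at -0.089 without stress 3. Pcdhgb6 had 6.63, 6.68 and 5.48 CPM in stress and 6.76, 7.04 and 7.44 CPM in non-stress, separate by less than its spread.

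Pcdhgb1, a gamma B gene, had 6.68, 7.30 and 7.51 CPM in stress and 4.66, 5.04 and 5.73 CPM in non-stress. Its groups were separate, with a log2 fold change of 0.48 (SE 0.11, edgeR adjusted p = 0.344), and it was the sole gamma B gene of 7 above 0. Pcdhgb7 had 4.22, 4.87 and 5.80 CPM in stress and 4.03, 7.51 and 6.09 CPM in non-stress, which overlapped. Of the abundant gamma A genes, Pcdhga4 had 19.3, 24.2 and 17.9 CPM in stress and 13.8, 19.6 and 16.2 CPM in non-stress, and Pcdhga7 had 20.8, 24.2 and 26.9 CPM in stress and 22.2, 19.7 and 25.3 CPM in non-stress. Both overlapped. The log2 fold change of Pcdhga4 was 0.31, or 0.17 to 0.45 when a library was left out, and that of Pcdhga7 was 0.10, or 0.0055 to 0.19.

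Of the remaining gamma C-type genes, Pcdhgc4 had 21.6, 29.4 and 22.7 CPM in stress and 31.5, 35.2 and 28.1 CPM in non-stress. Stress 2 lay above non-stress 3, and the log2 fold change was -0.36 (SE 0.12, edgeR adjusted p = 0.351). Pcdhgc5 had 96.7, 93.6 and 96.8 CPM in stress and 101, 108 and 84.5 CPM in non-stress. The non-stress libraries surrounded the stress libraries, and the log2 fold change was -0.03 (SE 0.08). In the whole gamma cluster 2 of 22 members were higher without overlap, a share near the 8.7% of all genes, and 4 were lower, beside 9.2%. The gamma genes not given by library all overlapped, with log2 fold changes from -0.27 (Pcdhgb4) to 0.21 (Pcdhga6).

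Neighbouring isoforms differed in direction in some pairs of each cluster. Of adjacent tested genes, 5 of 13 pairs in alpha, 7 of 20 in beta and 8 of 21 in gamma had log2 fold changes of opposite sign. The number that the mix of signs alone would give was not worked out, so nothing is read from these counts. The gaps of the pairs of opposite sign ran from 0.30 (Pcdhb11 and Pcdhb12) to 4.72 (Pcdhga9 and Pcdhgb6) times the combined SE. That SE treats the genes of a pair as independent. The median absolute difference between neighbours was 0.17 in alpha, 0.22 in beta and 0.33 in gamma. The widest gaps were 1.11 between Pcdha6 and Pcdha7, which involves the Pcdha7 value above, and 0.99 between Pcdhgb5 and Pcdhga9. Without non-stress 1 Pcdhgb5 lay at 0.0017 and Pcdhga9 at 0.66, and they no longer differed in sign.

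The members also differed in how much libraries of the same group varied, which does not depend on the stress contrast. The quasi-dispersion of edgeR, the variation within groups left over after counting noise and the trend for genes of that abundance, had a median of 1.90 over gamma genes, 0.716 over beta genes and 0.514 over alpha genes, beside 0.579 over all genes tested. It exceeded 2 in 10 of 22 gamma genes, 0 of 21 beta genes and 1 of 14 alpha genes (Pcdha7, at 4.84), beside 9.5% of all genes. The gamma genes at the top were Pcdhga9 (4.14), Pcdhgb4 (3.71), Pcdhga4 (3.50) and Pcdhga11 (3.44). Pcdhga12 stood at 0.870 and Pcdhga2 at 1.37. The difference between clusters was not tested.

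**Figure D5:**
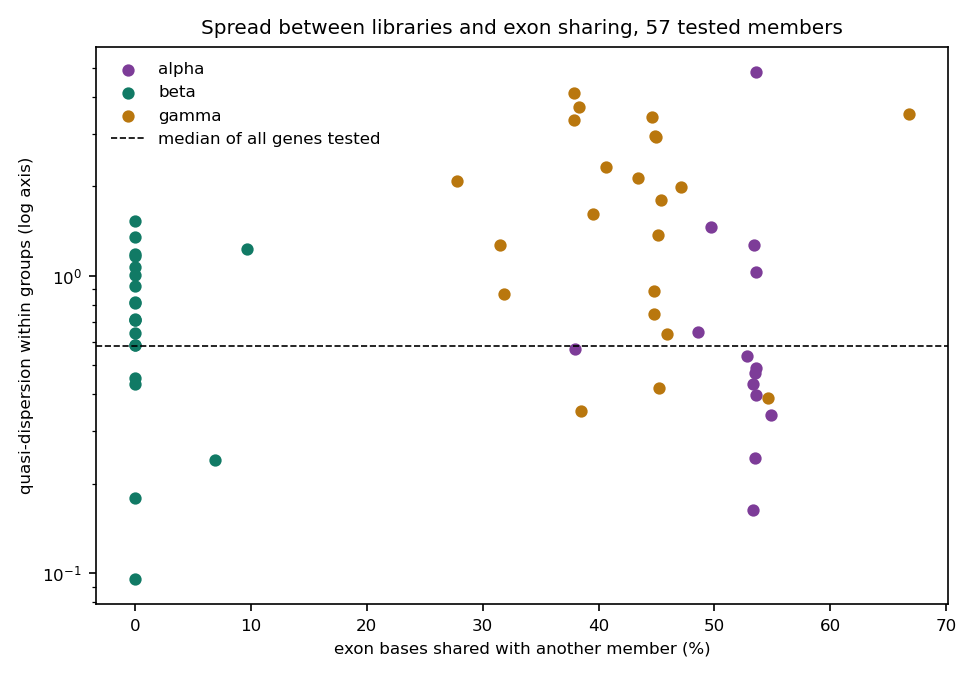
Quasi-dispersion within groups (log axis) against the percentage of exon bases shared with another member, for the 57 members tested, coloured by cluster, with a dashed line at the median of all genes tested (0.579). The highest point is the alpha gene Pcdha7 (4.84), and gamma genes fill most of the upper part. Beta genes sit at 0% to 9.7% sharing, and alpha genes at 38.0% to 54.9% sharing lie mostly near or below the line.

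DESeq2's Wald test gave an adjusted p to 39 of the 57 members and called 3 of them, beside 1.05% of all genes given one. Pcdhga9 was higher, beside 0.494%, and Pcdhga12 and Pcdhga2 were lower, beside 0.552%. The limma-voom test called 0 of 57 at an adjusted p under 0.05, beside 0.0104% of all genes. Its unadjusted p was under 0.05 in 13 members, from which nothing is read, since the share of all genes for that was not counted. Without non-stress 1, edgeR called 3 members, beside 3.85% of all genes. Pcdhb16 was higher, beside 2.94%, and Pcdhga2 and Pcdhga12 were lower, beside 0.913%. On principal component 1 of all genes tested (34.5% of the variance), non-stress 1 lay at -11.7, next to the stress libraries at -20.4 to -14.9 and away from non-stress 2 and 3 at 37.4 and 27.4. The labels name no batch, and the part of this division in the results was not tested.

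The 5 genes whose log2 CPM most resembled that of Pcdhga12 over the 6 libraries were Mtmr4, Ube3c, Lgi3, Cdr2l and H2-Q7, each with a Pearson correlation of 0.99. A correlation does not weigh size. In that order their log2 fold changes were -0.20, -0.085, -0.22, -0.18 and -0.61, against -0.65 for Pcdhga12. These 5 genes are described and not tested, since 125 genes exceeded 0.95 with 6 libraries. Among the other members the closest was Pcdhga2, at 0.96.

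Of genes related to the family, the non-clustered protocadherins, single genes scattered over the genome with their own adhesion roles, had 10 of 11 tested members above 0 in stress, with a median log2 fold change of 0.21. In edgeR's test 0 were called, beside 0.0052% of all genes, and 5 had an unadjusted p under 0.05, beside 12.1%. Without overlap 6 were higher, beside 8.7%. Pcdh17 had 81.8, 81.4 and 79.8 CPM in stress and 72.25, 60.9 and 64.9 CPM in non-stress (log2 fold change 0.30, SE 0.06, edgeR adjusted p = 0.344). Pcdh9 had 419, 417 and 412 CPM in stress and 375, 249 and 278 CPM in non-stress (0.47, SE 0.12), and Pcdh11x 51.1, 50.6 and 51.9 CPM in stress and 47.6, 33.4 and 38.8 CPM in non-stress (0.36, SE 0.11). In each of these 3 genes the stress group was approached most closely by non-stress 1. DESeq2 called Pcdh17 and Pcdh11x, beside 1.05% of all genes, and limma-voom called 0. Without non-stress 1, edgeR called 5 of the 11, all higher, beside 2.94% of all genes.

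Regulators of protocadherin promoter choice had 12 of 18 members above 0, with a median log2 fold change of 0.05. EdgeR, DESeq2 and limma-voom each called 0, beside 0.0052%, 1.05% and 0.0104% of all genes. At edgeR's unadjusted p under 0.05, 3 were higher, beside 5.8% of all genes, and 3 lower, beside 6.27%. Ctcf, the insulator gene, had 60.8, 57.3 and 57.7 CPM in stress and 56.9, 55.7 and 59.4 CPM in non-stress, which overlapped (log2 fold change 0.03, SE 0.05). Cohesin genes differed in sign, none past edgeR's test: Smc3 was at 0.28 (SE 0.09) and Rad21 at -0.19 (SE 0.06), and the cohesin loader gene Mau2 was at -0.17 (SE 0.06). Nipbl, which encodes Mau2's partner in the loader and was singled out after its values were seen, had 26.7, 28.1 and 28.4 CPM in stress and 26.8, 14.4 and 17.1 CPM in non-stress. Non-stress 1 lay within the stress range, and the log2 fold change was 0.51 (SE 0.18, edgeR adjusted p = 0.363, or 0.000481 without non-stress 1). The 19 genes for partners and downstream proteins included the kinases Fyn, Ptk2b and Ptk2 at -0.10, -0.09 and 0.09. Of the 19, edgeR, DESeq2 and limma-voom each called 0. At edgeR's unadjusted p under 0.05 there were 0 of the 19, beside 12.1% of all genes. The median over the 19 was -0.021. Without non-stress 1, edgeR called 2 of the 18 regulators and 1 of the 19 partners, beside 3.85% of all genes.

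The tissue label was checked against marker genes. All 7 markers of cortical neurons were present, summing to 8152 to 8269 CPM in stress and 8329 to 8512 CPM in non-stress, which did not overlap and differed by -0.034 on the log2 scale. Choroid plexus markers summed to 4.905 to 13.02 CPM in stress and 8.66 to 13.9 CPM in non-stress, and serotonergic markers to 0.713 to 1.28 CPM in stress and 0.596 to 1.07 CPM in non-stress. The striatal markers summed to 153 to 162 CPM in stress and 147 to 184 CPM in non-stress, and the astrocyte markers to 1427 to 1486 CPM in stress and 1446 to 1500 CPM in non-stress. These sums overlapped, as did those of the oligodendrocyte lineage (5711 to 6186 CPM in stress, 5198 to 6429 CPM in non-stress) and microglia (441 to 465 CPM in stress, 457 to 464 CPM in non-stress). The endothelial sum was 149 to 157 CPM in stress and 138 to 153 CPM in non-stress, and the meningeal sum 11.5 to 12.8 CPM in stress and 8.57 to 13.5 CPM in non-stress. The interneuron sum did not overlap by a narrow margin, at 933.2 to 933.9 CPM in stress and 863 to 933.1 CPM in non-stress. Its genes went different ways. Sst was at 285 to 296 CPM in stress and 218 to 269 CPM in non-stress. Gad1 was at 317 to 322 CPM in stress and 325 to 363 CPM in non-stress. Gad2, Slc32a1, Pvalb and Vip overlapped between groups. Snap25 held most of the neuronal sum, so other markers hardly show in it. Neurod6 was at 211 to 214 CPM in stress and 176 to 196 CPM in non-stress. Rbfox3 went the other way, at 312 to 315 CPM in stress and 329 to 351 CPM in non-stress. The astrocyte marker Gfap had 26.6, 5.34 and 4.73 CPM in non-stress libraries 1, 2 and 3, against 12.5 to 14.5 CPM in stress. No listed marker was at 0 in every library. Of 54 marker genes tested, edgeR called 0, beside 0.0052% of all genes. Its unadjusted p was under 0.05 in 8, beside 12.1% of all genes. The part of the markers in the protocadherin values was not tested.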

How the data were processed

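Per the labels' protocols, RNA from the tissue went into cDNA by a SMARTer kit for small inputs, and then into TruSeq libraries. Per the submitters' processing notes, Trimmomatic 0.38, HISAT2 and StringTie were used with build GRCm38 (mm10). The sources used here do not name the counting step, how it treated reads in shared exons, its annotation release or its use of strand. The authors deposited 1 table of whole-number counts per gene, used unchanged, with 41623899 to 47212982 counts per library. The family held 23937 to 27836 counts in a library.

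edgeR's filterByExpr kept 19227 of 45777 genes. Library sizes were scaled by TMM, and a two-sided quasi-likelihood test of stress against non-stress was run (edgeR 4.0.16, R 4.3.3). The model held group and no other covariate, and p-values were adjusted by Benjamini-Hochberg over all genes tested. Fold changes are stress over non-stress. The test was tried on simulated data first, and its power at the sizes of difference reported here is not given. The alternatives comprised median-of-ratios size factors, library totals alone, dropping the filter, raising it to 50 counts in 3 libraries, leaving out each library, replicate number as a block, DESeq2 1.42.0 and limma-voom (limma 3.58.1). The sum of Pcdha7 and Gm38667 was added after seeing the data.

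The members, gene lists and tests were chosen with earlier results of these data known. Named were all C-type genes, the 3 highest and the 3 of smallest p in each other class, the neighbours of the member of smallest p, the 3 of smallest p in each related list and Ctcf. Other members are named where a sentence singles them out after their values were seen. Positions come from NCBI's gene table (GRCm38.p6), and exon lengths and sharing from GENCODE M21, in which all 58 members were matched by NCBI Gene ID. The GENCODE gene matched to Pcdha10 carries the symbol Pcdha11 there, as does the gene matched to Pcdha11. The authors' gene models may differ from those of NCBI and GENCODE.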

Additional observations from a re-analysis of the deposited data

How the results depend on the processing

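Over all genes tested, edgeR called 1 gene, against 2 with the replicate block, 127 with DESeq2, 2 with limma-voom and 1 to 756 when a library was left out, the most without non-stress 1. Members called numbered 0 with edgeR, 3 with DESeq2 and 0 to 3 when a library was left out. Members at edgeR's unadjusted p under 0.05 numbered 12, or 9 to 19 when a library was left out. The share of all genes at that unadjusted p was counted with all libraries alone (12.1%), so nothing is read from the other counts. The gamma median log2 fold change ran from -0.14 to -0.018 when a library was left out. Non-clustered protocadherins called numbered 0, or 2 with DESeq2 and 0 to 5 without a library, chromatin regulators 0 to 2 and partners 0 to 1. Among the genes named by rule, signs reversed without a library for Pcdhac1 (-0.090 to 0.065), Pcdha11 (-0.018 to 0.16) and Pcdhgc5 (-0.13 to 0.047), and for Pcdha7 when summed with Gm38667 (0.14). Without non-stress 1, the signs of Pcdhb5, Pcdhb12, Pcdhb21, Pcdhb22, Pcdhga8 and Pcdhgb5 also turned, and the log2 ratio of the gamma sum was 0.015 without non-stress 2, against -0.032 with all libraries. The reversal for Pcdha7 came with adding the read-through gene, and the causes of the other changes were not tested.

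For single named genes, 448 values under an alternative kept their direction and their side of the threshold, 12 passed it (5 with DESeq2, 7 without non-stress 1) and 5 reversed. Same-numbered libraries did not deviate together (correlations of 0.016, -0.030 and 0.021 over 19227 genes), so the replicate numbers were not taken as pairs. The block gave 0 members called and 14 at an unadjusted p under 0.05, for which the share of all genes was not counted. Members with few counts, such as Pcdhb1 and Pcdhb13, are limited by depth.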

Other observations

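A second read-through gene was listed at 0 in 1 library. Gm37013 (NCBI synonym Pcdha4-g) starts at 36952648, close to the start of Pcdha4 at 36952689, and ends with the gamma cluster. It had 179, 0 and 205 counts in stress libraries 1, 2 and 3 and 124, 235 and 157 counts in non-stress libraries 1, 2 and 3. In stress 2, where Gm37013 is listed at 0, Pcdha4 had its highest level, 8.63 CPM, against 5.75 to 6.40 CPM in the other libraries. In non-stress 2 both Gm37013 and Pcdha4 were at their highest of the non-stress libraries. Added together, Pcdha4 and Gm37013 had 10.4, 8.63 and 10.3 CPM in stress and 8.99, 11.4 and 9.87 CPM in non-stress, a 1.32-fold range. The quasi-dispersion of Gm37013 was 35.0, above 99.9% of all genes tested, and that of Gm38667 was 4.499. The read-through gene beside Pcdha6, Gm38666, had 0 counts in every library. These genes lie outside the rule for members and were singled out after their values were seen.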
